A study of Mus musculus with 10 samples.

Results

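The clustered protocadherin genes are 58 genes on mouse chromosome 18, taken here as all RefSeq genes there whose symbols begin with Pcdha, Pcdhb or Pcdhg, of 49943 RefSeq genes in all (GRCm38/mm10). The Pcdha cluster has 14 members, of which 12 are alternate genes (Pcdha1 to Pcdha12) and 2 are C-type genes (Pcdhac1 and Pcdhac2). The Pcdhb cluster has 22 members. The Pcdhg cluster has 22, with 12 of subfamily A, 7 of subfamily B (1 of them the pseudogene Pcdhgb8) and 3 C-type genes (Pcdhgc3, Pcdhgc4 and Pcdhgc5). In order along the chromosome, the Pcdha members lie between 36930285 and 37188897, the Pcdhb members between 37264998 and 37521419 and the Pcdhg members between 37661775 and 37841873. Together they span 912 kb.

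Clustered protocadherins are cell adhesion proteins that sit on neuronal surfaces and give single neurons different molecular identities. Each Pcdha or Pcdhg gene has its own promoter and its own large first exon, which is spliced to constant exons that all genes of the cluster share. Pcdhb genes have a single coding exon. Individual neurons are known to choose a few alternate promoters, apparently at random, whereas the C-type promoters are used more uniformly. The choice is known to depend on looping by CTCF and cohesin between promoters and enhancers, with DNA methylation keeping unused promoters silent.

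The cells were primary cortical neurons from C57BL/6J mice on day 6 in vitro. Both groups spent a night in 3% serum; 1 was then left untreated and the other was depolarised with KCl at 50 mM for 45 min. Chromatin immunoprecipitation and sequencing was performed for Gtf3c1 (the largest subunit of TFIIIC, which brings RNA polymerase III to its genes), Rpc155 (the catalytic core subunit of RNA polymerase III itself), H3K4me1 (a mark of enhancers and promoter flanks) and H3K27ac (a mark of active promoters and enhancers). There are 8 lists of enriched regions, 1 for each of 4 antibodies and 2 conditions, and the design names 3 biological replicates per condition. With 1 list for each group, a difference between conditions has no replicate check, so the values of both lists are given side by side without a p-value.

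Across the genome the untreated and KCl lists hold 66622 and 58090 Gtf3c1 regions, 12531 and 4251 Rpc155 regions, 192225 and 193683 H3K4me1 regions, and 65486 and 58124 H3K27ac regions. The KCl list of Rpc155 is therefore much the shorter of its pair. Read depth is unknown, because the lists hold no counts. As a check of the cell label over markers with a known strand, H3K27ac regions lay at the starts of 4 of 4 neuronal, 5 of 5 glutamatergic and 6 of 6 GABAergic marker genes in both conditions. They lay at 0 of 3 microglial and 0 of 3 oligodendrocyte-lineage markers in both. For astrocyte markers the counts were 1 untreated and 2 KCl of 5, for endothelial markers 0 and 1 of 4, and for progenitor markers 2 and 4 of 6.

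Regions of the histone marks and of Gtf3c1 lay near every Pcdha and Pcdhg gene and near no Pcdhb gene. Within 5 kb of the gene body, 36 of 58 members (62.1%, Clopper-Pearson 95% interval 48.4 to 74.5%) had a Gtf3c1 region in untreated cells and 36 had one with KCl. Among 21887 protein-coding genes, 60.1% and 58.6% did. The same 36 members had H3K4me1 and H3K27ac regions in both conditions, beside 77.8% and 77.9% of protein-coding genes for H3K4me1 and 62.9% and 66.0% for H3K27ac. Rpc155 regions lay within 5 kb of 22 members in the untreated list, all of them Pcdhg genes, and of 0 in the KCl list, beside backgrounds of 33.6% and 14.6%. These counts rest on few regions, because the Pcdha genes end within 1240 bp of each other and the Pcdhg genes within 1384 bp, so that 1 region near a shared end counts for every gene of its cluster. The intervals cover counting error only and treat genes that share regions as separate. The 5 kb limit fell in a wide gap: the nearest member outside it was Pcdhb1, 46.6 kb from any region.

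**Figure D1:**
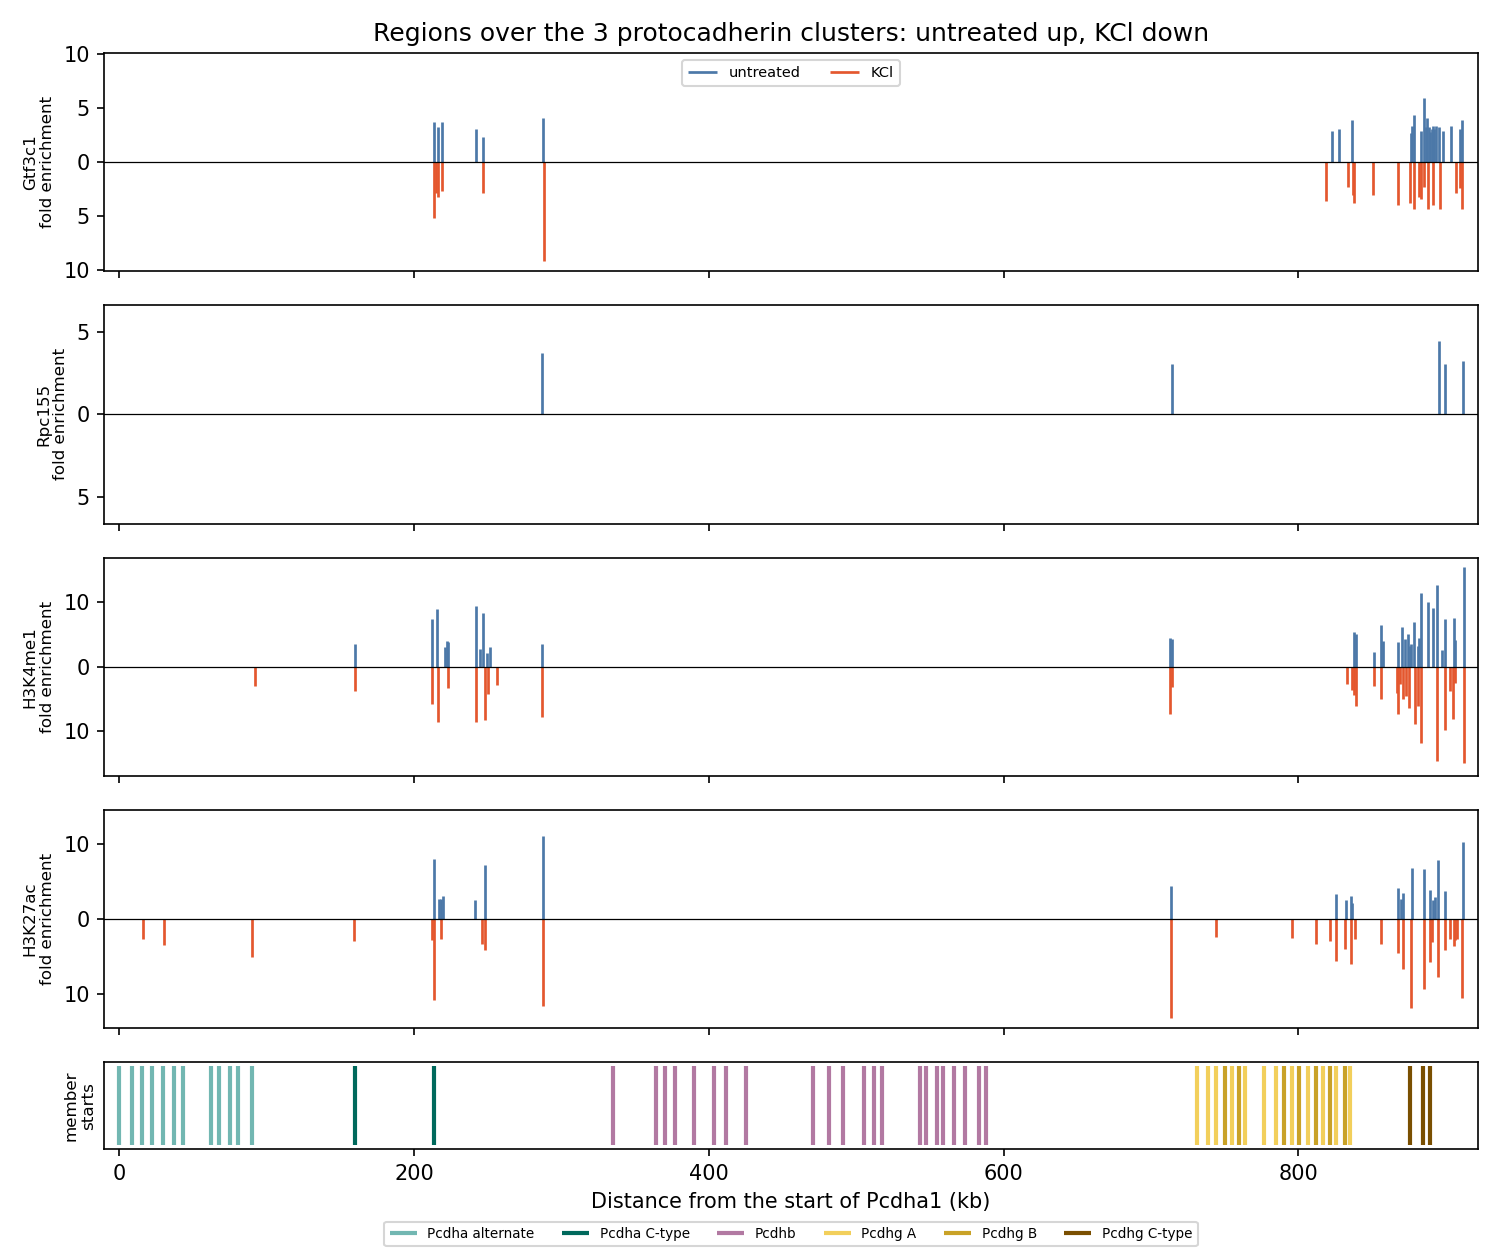
Fold enrichment (deposited ratio of signal to local background, y axis) of each region against the distance of its summit from the start of Pcdha1 (x axis, kb), with untreated regions drawn upward and KCl regions downward; the lowest panel marks the starts of the 58 members by group. Regions gather over the C-type genes and at an intergenic site between Pcdha and Pcdhb, and the 22 Pcdhb starts lie in a stretch with none.

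Starts were examined next, since only its own promoter and first exon distinguish a Pcdha or Pcdhg gene from its neighbours. A start was the window from 1.0 kb before to 2.5 kb after the 5′ end of the gene; the closest member starts are 3.78 kb apart, so the windows do not overlap. In this window 7 of 58 members (12.1%) had a Gtf3c1 region in untreated cells and 7 had one with KCl, whereas 44.7% and 46.5% of 17492 protein-coding genes with a known strand did. For H3K4me1 the members numbered 6 and 8 (10.3% and 13.8%), beside 66.0% and 66.1%. For H3K27ac they numbered 7 (12.1%, interval 4.99 to 23.3%) and 15 (25.9%, interval 15.3 to 39.0%), beside 51.7% and 56.3%. No member start held an Rpc155 region in either list, a count of 0 of 58 that allows a share of up to 6.16%, beside 22.1% and 8.75%. In each of the 8 lists, with these settings, the upper bound for the members lay below the share of protein-coding genes. For Rpc155 this did not hold at q = 1e-05, where the protein-coding shares were 6.10% and 2.81%, nor with KCl in a window of 500 bp on each side, where the share was 6.13%.

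**Figure D2:**
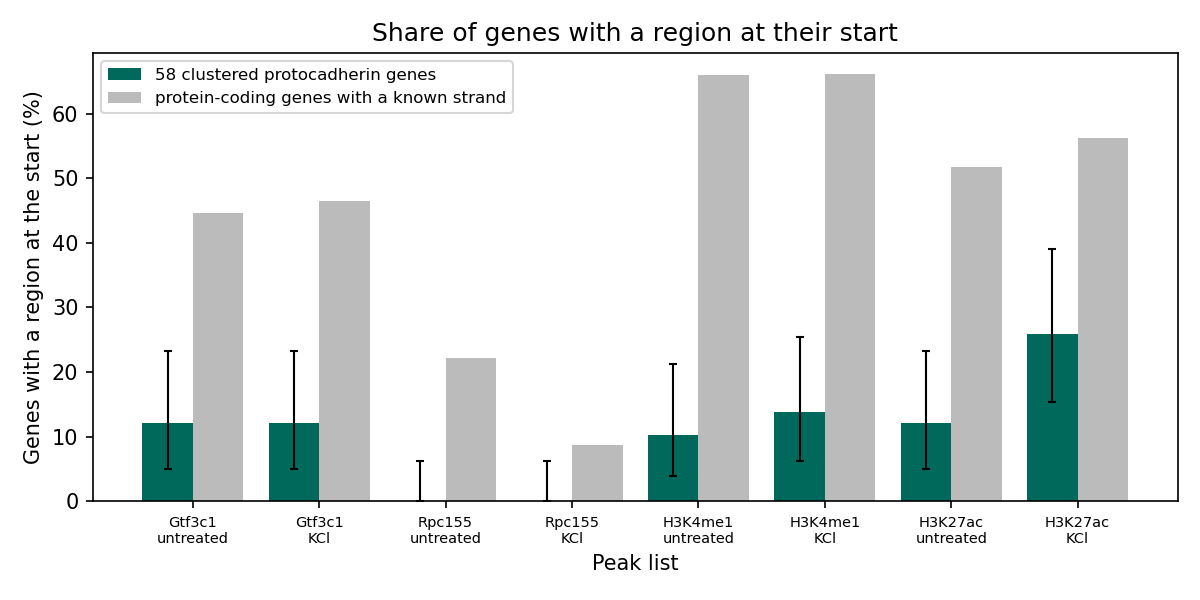
Percent of genes with a region at the start (y axis) in each of the 8 lists (x axis), for the 58 clustered protocadherin genes with exact 95% binomial intervals and for the 17492 protein-coding genes with a known strand. The member bars run from 0 to 25.9% and lie below the grey bars in all 8 lists.

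Of the 58 members, 42 had no start region in any list, beside 31.6% of protein-coding genes. They comprised 9 of 12 Pcdha alternate genes, 22 of 22 Pcdhb genes, 7 of 12 Pcdhg A genes and 4 of 7 Pcdhg B genes. None of the 5 C-type genes was among them. Start regions were thus spread unevenly within the family, and they were found at C-type genes, at the end of the Pcdhg array that adjoins them, and at scattered alternate genes.

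**Figure D3:**
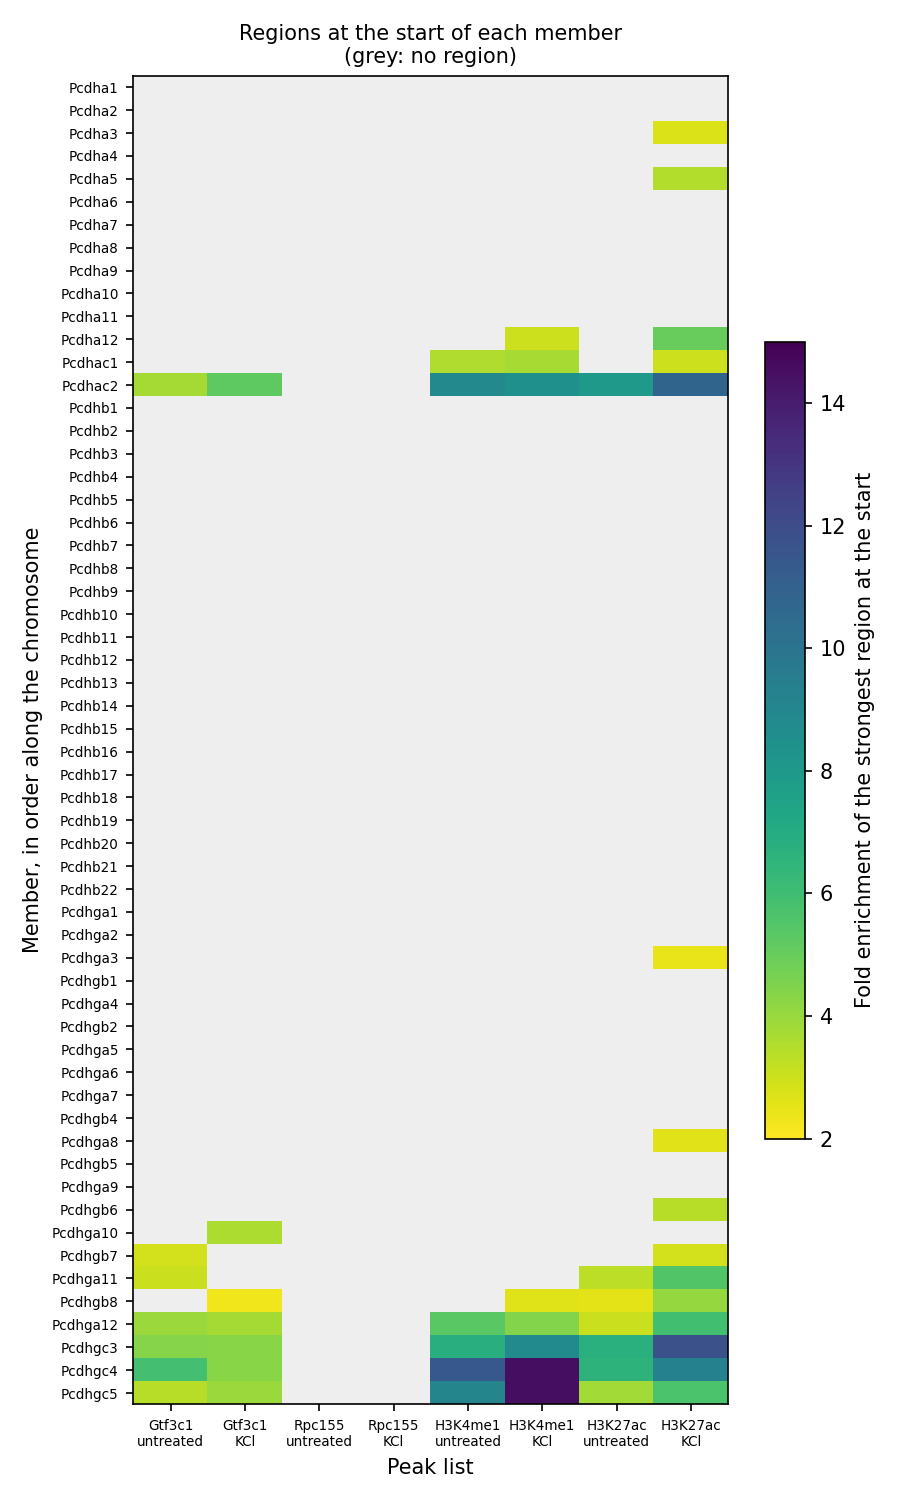
Fold enrichment (colour) of the strongest region at the start of each of the 58 members (y axis, in chromosome order) in each of the 8 lists (x axis); grey marks a start with no region. The filled cells lie at Pcdhac1, Pcdhac2 and the last genes of the Pcdhg cluster, with single H3K27ac cells in the KCl column at alternate genes such as Pcdha3 and Pcdhga8.

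The strongest start regions of the family lay at C-type genes. At Pcdhac2, the last promoter of the Pcdha cluster, H3K27ac had a fold enrichment of 8.00 untreated and 10.8 with KCl, H3K4me1 had 8.89 and 8.48, and Gtf3c1 had 3.76 and 5.20. At Pcdhgc3, whose promoter opens the C-type group of Pcdhg, the values were 6.73 and 11.8 for H3K27ac, 6.87 and 8.83 for H3K4me1, and 4.36 and 4.31 for Gtf3c1. Pcdhgc4, a C-type isoform known to matter for the survival of cortical interneurons, had 6.60 and 9.30 for H3K27ac, 11.4 and 14.5 for H3K4me1, and 5.91 and 4.31 for Gtf3c1. At Pcdhgc4 the strongest regions of the 2 lists did not overlap for Gtf3c1 or H3K4me1: the KCl regions that overlapped the untreated ones had 2.27 for Gtf3c1 and 11.7 for H3K4me1. All 3 antibodies thus had regions at these starts in both conditions. Pcdhgc5, the last promoter of the cluster, had 3.81 and 5.67 for H3K27ac, 9.06 and 14.5 for H3K4me1, and 3.40 and 3.95 for Gtf3c1. The KCl value of H3K4me1 is shared by Pcdhgc4 and Pcdhgc5, since a single KCl region of 12666 bp reached both start windows. In the untreated list each had a region of its own. The summit of the KCl region lay outside both windows, 9528 bp after the Pcdhgc4 start and 5061 bp after the Pcdhgc5 start. An untreated region of 12.6 lay at that summit (37823524 to 37826929) but reached neither window. The H3K4me1 values of the 2 lists at these starts thus come from different places.

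Pcdhac1 stood apart from the other C-type genes. Its start had H3K4me1 at 3.55 untreated and 3.71 with KCl and an H3K27ac region of 2.97 in the KCl list alone, and it had no Gtf3c1 region. Its H3K27ac summit lay 360 bp before the annotated start, the 1 member of 15 in the KCl list whose summit was not after it.

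Among the alternate genes of Pcdhg, the marks were found mainly at the last ones before Pcdhgc3. In the KCl list of H3K27ac, 5 of the last 6 A and B genes had a start region (Pcdhgb6, Pcdhgb7, Pcdhga11, Pcdhgb8 and Pcdhga12, with Pcdhga10 lacking one), against 2 of the first 13 (Pcdhga3 and Pcdhga8). In the untreated list the counts were 3 of 6 and 0 of 13. This division at 6 genes was made after the values were seen. Pcdhga12, the last of the A genes, was the alternate gene with the most marks: H3K27ac had 3.05 untreated and 5.94 with KCl, H3K4me1 5.33 and 4.42, and Gtf3c1 3.94 and 3.77. The pseudogene Pcdhgb8 had H3K27ac at 2.54 and 4.05, and with KCl alone H3K4me1 at 2.65 and Gtf3c1 at 2.30. Pcdhga11 had H3K27ac at 3.28 and 5.54 and Gtf3c1 at 3.04 in the untreated list alone.

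The condition with the larger number of acetylated starts was KCl. H3K27ac regions were present at 8 member starts in the KCl list alone (13.8%, interval 6.15 to 25.4%), beside 5.27% of protein-coding genes, and at 0 in the untreated list alone, beside 0.709%. Counted only over starts without an untreated region, the share was 8 of 51 (15.7%, interval 7.02 to 28.6%), and the protein-coding value of 10.9% lay inside that interval. These 8 starts belonged to 3 Pcdha alternate genes, Pcdha3 at a fold enrichment of 2.70, Pcdha5 at 3.51 and Pcdha12 at 5.00, to the C-type gene Pcdhac1, and to 4 Pcdhg genes. The Pcdhg genes were Pcdhga3 at 2.43, Pcdhga8 at 2.58, Pcdhgb6 at 3.38 and Pcdhgb7 at 2.90. Their median was 2.94, while protein-coding starts acetylated in the KCl list alone had a median of 3.65 (quartiles 2.97 and 4.59). Most were therefore weak regions, with Pcdha12, the last alternate gene of the Pcdha cluster, the strongest. At a stricter limit of q = 1e-05, 5 starts were found with KCl alone: Pcdha5, Pcdha12 and Pcdhgb6 from this group, and Pcdhgb8 and Pcdhga12, whose untreated regions did not pass that limit. At the same limit 5.48% of protein-coding starts were acetylated in the KCl list alone.

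The 7 starts acetylated in both conditions (Pcdhac2, Pcdhga11, Pcdhgb8, Pcdhga12, Pcdhgc3, Pcdhgc4 and Pcdhgc5) all had the higher fold enrichment in the KCl list. The ratio of KCl to untreated ran from 1.35 at Pcdhac2 to 1.95 at Pcdhga12, with a median of 1.59. The same direction was found at 91.5% of 8923 protein-coding starts acetylated in both, whose median ratio was 1.42 (quartiles 1.20 and 1.68), so the members followed the direction of the lists as a whole. The median H3K27ac fold enrichment of member starts with a region was 3.81 untreated and 4.05 with KCl, beside 6.22 and 8.78 over protein-coding starts. The family was divided here: the C-type starts had medians of 6.67 (4 starts) and 9.30 (5 starts), and the alternate starts 3.05 (3 starts) and 3.44 (10 starts).

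For the other antibodies few starts differed between lists. Gtf3c1 regions were at 5 member starts in both lists, at Pcdhga10 (3.59) and Pcdhgb8 (2.30) with KCl alone, and at Pcdhgb7 (2.87) and Pcdhga11 (3.04) untreated alone, beside backgrounds of 5.98% for KCl alone and 4.20% for untreated alone. Of the 5 in both lists, 2 had the higher value with KCl, beside 64.7% of protein-coding starts. H3K4me1 was at 6 starts in both lists and with KCl alone at Pcdha12 (3.00) and Pcdhgb8 (2.65), beside a background of 1.63%; none was found in the untreated list alone, beside 1.48%. Of those 6, 4 had the higher value with KCl, beside 64.7%. The 4 include Pcdhgc4 and Pcdhgc5, whose KCl value came from the shared region with its summit outside both start windows.

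Several acetylated starts lay far from any H3K4me1 region. Of the members with H3K27ac at the start, 2 of 7 untreated (Pcdhga11 and Pcdhgb8) and 7 of 15 with KCl (46.7%, interval 21.3 to 73.4%) had no H3K4me1 region in the same window, beside 1.38% and 1.37% of protein-coding starts. In the KCl lists the nearest H3K4me1 region was 75.8 kb from the start of Pcdha3, 61.7 kb from that of Pcdha5, 37.7 kb from Pcdhga8, 29.4 kb from Pcdhga3, 21.3 kb from Pcdhgb6, 11.8 kb from Pcdhgb7 and 7.64 kb from Pcdhga11. The untreated distances were 11.6 kb for Pcdhga11 and 5.58 kb for Pcdhgb8. The C-type genes, by contrast, had H3K4me1 at all 5 starts in both lists.

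The summits of the strongest regions that reached into the start windows lay at different distances for the antibodies, and some lay outside the window, since a region was counted when any part of it reached in. H3K27ac summits lay close to the start, at a median of 487 bp after it untreated and 274 bp with KCl, near the 247 and 251 bp of protein-coding starts. H3K4me1 summits lay further downstream, at medians of 2354 and 2580 bp, where protein-coding starts had 823 and 866 bp. Gtf3c1 summits had medians of 1536 and 2242 bp after the member starts, against 217 and 185 bp. With a window of 500 bp on each side of the start, the H3K27ac counts were the same 7 and 15, beside 47.9% and 52.9% of protein-coding starts. The Gtf3c1 counts were 4 and 3 in place of 7 and 7, beside 38.3% and 40.5%.

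The 35.5 kb from the start of Pcdhgc3 to the end of the cluster, which holds the C-type exons and the shared constant exons, was, of the 7 stretches into which the span was divided, the most covered in each of the 7 lists with a region there. H3K4me1 regions covered 68.6% of it untreated and 74.1% with KCl, H3K27ac 45.7% and 64.7%, and Gtf3c1 25.0% and 25.6%. Rpc155 covered 4.11% untreated and 0 with KCl. The Pcdhg end itself lay in regions of H3K4me1 at 15.3 and 14.8 and H3K27ac at 10.3 and 10.5, which ran on to the 1.73 kb that separate the cluster from Diaph1. Over the 145 kb of A and B starts the shares were far lower, at 3.16% and 9.58% for H3K27ac, 5.05% and 5.54% for H3K4me1 and 1.05% and 1.36% for Gtf3c1.

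**Figure D4:**
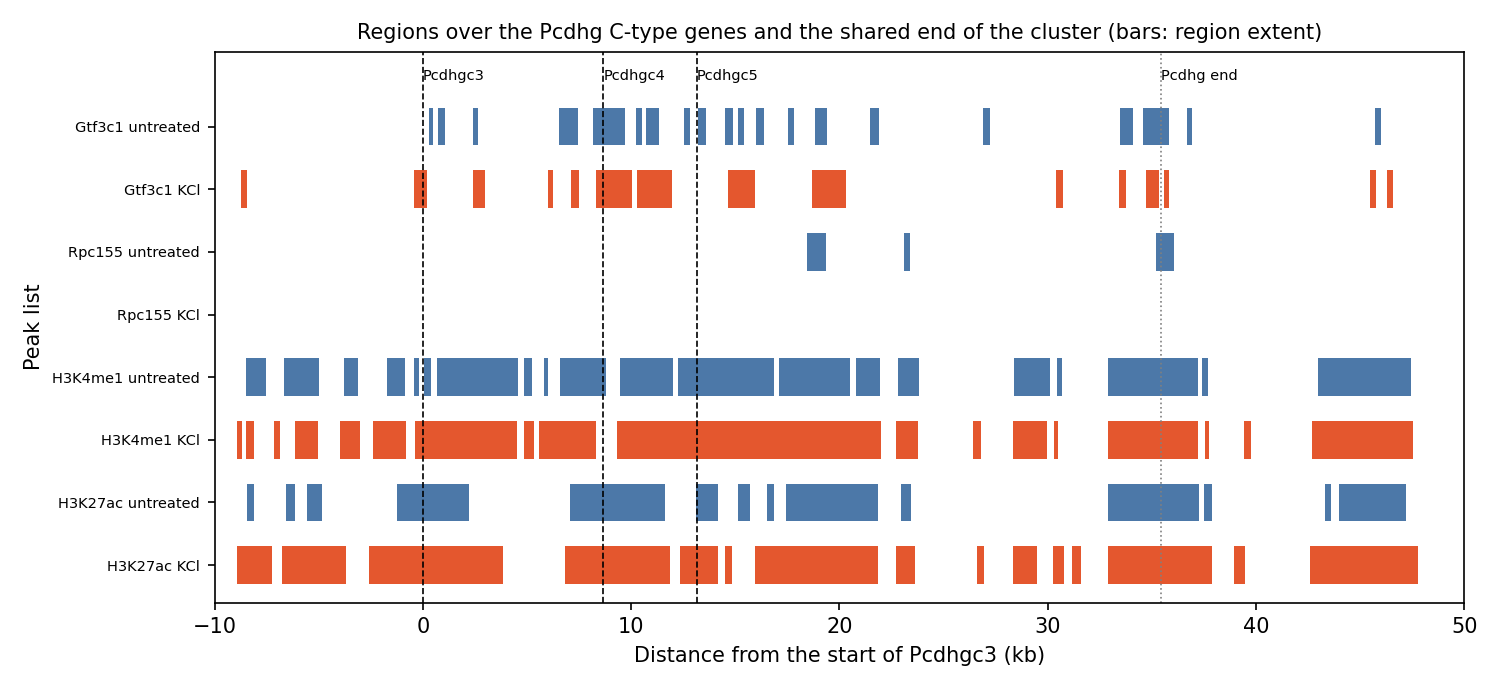
Extent of the regions in each of the 8 lists (y axis) against distance from the start of Pcdhgc3 (x axis, kb); dashed lines mark the starts of the 3 C-type genes and the dotted line the end of the Pcdhg cluster. H3K4me1 and H3K27ac regions fill much of the stretch in both conditions, and the 12666 bp KCl region of H3K4me1 stands where the untreated list has 4 separate regions.

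The Pcdha cluster showed the same division at lower density. Its 160 kb of alternate starts had no Gtf3c1 or Rpc155 region in either list, H3K4me1 over 0.178% untreated and 0.421% with KCl, and H3K27ac over 0 and 1.38%. The untreated H3K4me1 share was only the edge of the Pcdhac1 start region, which reached into this stretch. Regions at the Pcdhac1 start also gave part of both KCl shares. From Pcdhac1 to the end of the cluster, 98.8 kb, H3K4me1 covered 17.1% and 17.6%, H3K27ac 7.70% and 6.69% and Gtf3c1 2.65% and 1.60%. A region between Pcdhac2 and the Pcdha end did not share the KCl direction of the starts: H3K27ac at 37175905 to 37179310 had a fold enrichment of 7.11 untreated, and the KCl list held 2 regions there, at 3.40 and 4.13. H3K4me1 at the same place had 8.31 and 8.26. The stretches from each first C-type start to the end of its cluster make up 14.7% of the 912 kb. They held 81.4% and 79.8% of the bases covered by H3K4me1 regions, 84.3% and 76.8% for Gtf3c1, and 76.1% and 59.4% for H3K27ac. For Rpc155 the untreated share was lower, at 47.6%, and the KCl list had no region in the span.

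**Figure D5:**
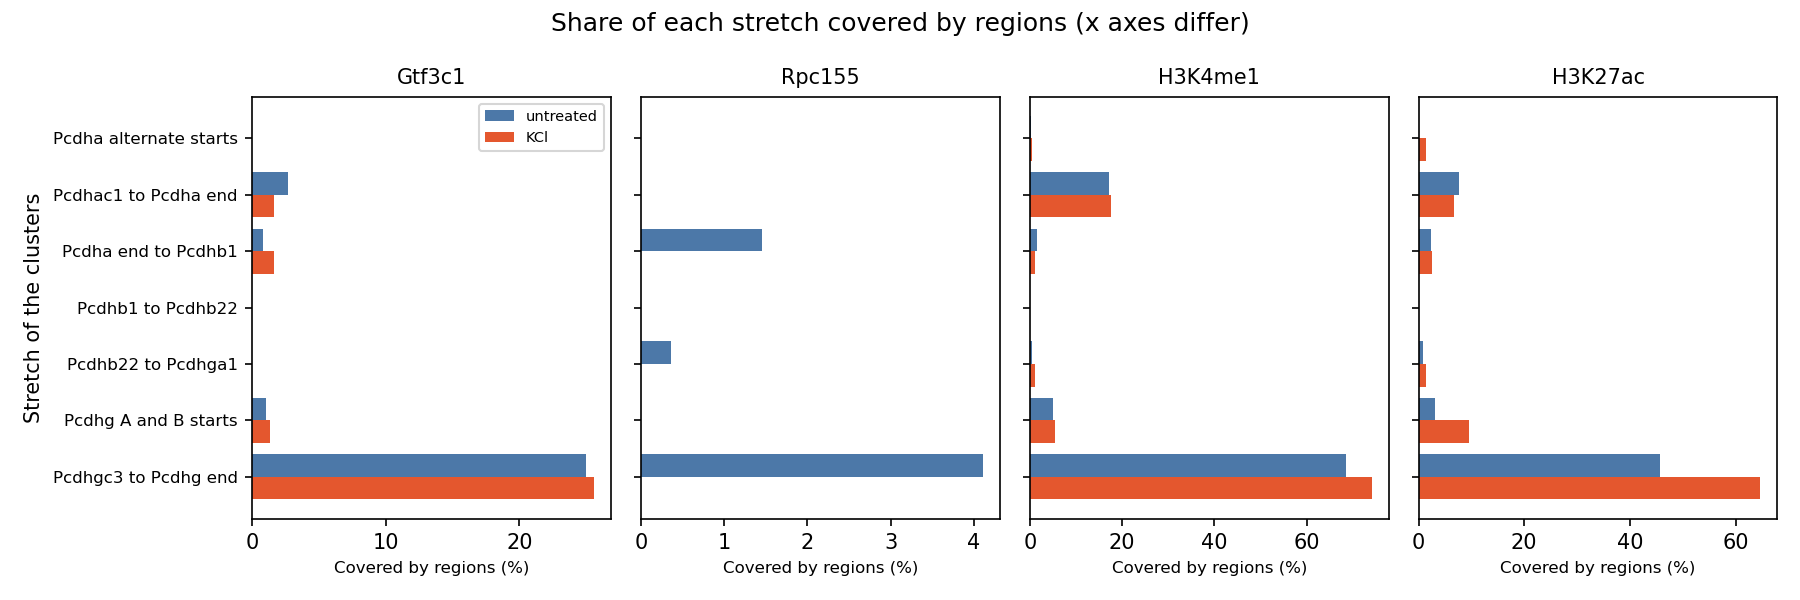
Percent of each stretch of the clusters covered by regions (x axes, which differ between panels) for the 4 antibodies, untreated and with KCl. The stretch from Pcdhgc3 to the Pcdhg end is the most covered in all 4 panels, and the Pcdhb stretch has no bar.

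The Pcdhb genes lay in a single long stretch without any region. No region of any of the 8 lists touched the 256 kb from Pcdhb1 to Pcdhb22, and the distance from a Pcdhb gene to the nearest region of any list ran from 46.6 kb at Pcdhb1 to 204 kb at Pcdhb12. The stretch free of regions ran from 37218392 to 37642690, 424 kb, and held 23 protein-coding genes, 22 of them Pcdhb members. It ranked 181 in length among 231696 such gaps between regions of all lists joined. Of the 181 gaps at least as long, 32 held as many protein-coding genes. Over all protein-coding genes, 20.5% had no region within 5 kb in any list.

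Between the Pcdha and Pcdhb clusters lay 1 site marked by all 4 antibodies, about 29.2 kb after the Pcdha end and 46.9 kb before Pcdhb1. An enhancer of the Pcdha genes, HS5-1, is known to lie downstream of the Pcdha constant exons; whether it is the same element was not tested. The H3K27ac region there (37216487 to 37218267 untreated, 37216291 to 37218282 with KCl) had a fold enrichment of 11.0 and 11.6, the highest of the span in the untreated list and ranked 611 and 2789 in its lists. Gtf3c1 had 4.12 over 624 bp untreated and 9.21 over 1247 bp with KCl, ranks of 21678 and 1884, and this was the highest Gtf3c1 value of the span with KCl. H3K4me1 had 3.57 and 7.77. Rpc155 had 3.74 untreated and no region with KCl. The H3K27ac values of this site were thus close to each other, while those of Gtf3c1 and H3K4me1 were the higher in the KCl list. The highest H3K27ac value of the span in the KCl list lay elsewhere, at the gene Taf7 between Pcdhb and Pcdhg. It was 13.2 there, beside 4.32 in the untreated list.

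Regions of RNA polymerase III itself were few over the clusters, but in the untreated list their share was not below that of the genome. They covered 0.336% of the span untreated, beside 0.227% of all chromosomes, and 0 with KCl, beside 0.0735%. The untreated list of Rpc155 held 5 regions in the span, with fold enrichments from 3.06 to 4.41, and the KCl list held 0, beside 17.6% of untreated Rpc155 regions genome-wide that overlapped a KCl region. They lay at the intergenic site, at Taf7 (a gene for a subunit of the general factor TFIID that lies between Pcdhb and Pcdhg), and at 3 places after Pcdhgc5. All 5 overlapped H3K27ac regions and 3 overlapped Gtf3c1 regions, beside 80.6% and 76.3% of all untreated Rpc155 regions. With so few regions, the span did not differ clearly from the list. In contrast, at the vault RNA gene Vaultrc5, a known RNA polymerase III gene before the Pcdha cluster, Rpc155 had 35.0 untreated and 25.6 with KCl. When the untreated list was shortened to the length of the KCl list, Rpc155 regions covered 0.0976% of the span in place of 0.336%.

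Over the whole span the share covered was 1.50% untreated and 1.52% with KCl for Gtf3c1 (1.14% and 1.08% over all chromosomes), 5.55% and 6.00% for H3K4me1 (6.51% and 6.72%), and 3.43% and 5.45% for H3K27ac (2.61% and 2.64%). The H3K27ac shares of the 2 lists thus lay further apart in the span than over all chromosomes. Of the 33 KCl regions of H3K27ac in the span, 17 (51.5%, interval 33.5 to 69.2%) overlapped an untreated region, beside 68.1% of the list. In the other direction, 19 of 23 untreated H3K27ac regions (82.6%) had a KCl region in common, beside 62.7%. For H3K4me1, 34 of 37 untreated regions (91.9%) overlapped a KCl region, beside 81.7%, and for Gtf3c1 16 of 27 (59.3%), beside 45.6%. H3K4me1 regions of the span overlapped H3K27ac in 20 of 37 cases untreated (54.1%, interval 36.9 to 70.5%) and 24 of 33 with KCl (72.7%, interval 54.5 to 86.7%), beside 29.3% and 28.4%.

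The non-clustered protocadherins, single genes elsewhere in the genome, differed from the clustered ones at their starts. Of 12 such genes, 9 have a known strand; H3K27ac lay at the start of 8 untreated and 9 with KCl, H3K4me1 at 8 and 8, Gtf3c1 at 8 and 8 and Rpc155 at 5 and 5. The protein-coding shares for these starts were 51.7% and 56.3%, 66.0% and 66.1%, 44.7% and 46.5%, and 22.1% and 8.75%, in the same order. Pcdh8, an activity-regulated protocadherin, had H3K27ac at 9.40 and 9.18, Pcdh10 had 6.09 and 7.43, and Pcdh19, an epilepsy gene, had 2.79 and 3.38. Among genes for known regulators of the clusters, H3K27ac lay within 5 kb of 17 of 18 untreated and 18 of 18 with KCl, beside 62.9% and 66.0% of protein-coding genes. Of 13 regulators with a known strand, 10 had H3K27ac at the start in both conditions, beside 51.7% and 56.3%. Stag1, Dnmt1 and Dnmt3a had none there in either list. At the start of Ctcf, which encodes the protein that anchors promoter loops, H3K27ac had 8.51 and 13.6. At Smc3 of cohesin it had 8.38 and 14.3, and at Smchd1, a repressor of clustered protocadherins, 8.13 and 10.1. Rpc155 regions lay within 5 kb of 8 of these 18 genes untreated and 1 with KCl (Wiz, 3.45), beside 33.6% and 14.6%. Of 19 genes for binding partners and signalling, 19 had H3K27ac within 5 kb in both conditions, and 15 untreated and 5 with KCl had Rpc155, beside the same protein-coding shares.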

How the data were processed

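The submitters aligned reads to GRCm38/mm10 (Bowtie2) and called peaks (MACS2), per the submitters' processing notes. Versions, the pooling of replicates and the treatment of reads that match several similar genes were not given in the sources used here. The deposited fold enrichment is a ratio of the summit to local background. The deposited −log10 p-value and q-value and the score are the peak caller's; q reached 0.05. Input libraries were not analysed here. From the lists were computed overlaps (at least 1 bp), covered bases and counts of genes, with exact binomial (Clopper-Pearson) 95% intervals (Python 3.11.15, pandas 2.3.3, scipy 1.17.1). Counting was tested on simulated regions. Lists were not scaled to each other, and no p-value was computed because each group has 1 list. Genes came from RefSeq (GRCm38.p6). Strand was known for 17492 of 21887 protein-coding genes, none on chromosome 18, and only these served as background for starts, in place of the planned use of both gene ends; on that plan 47.6% and 48.6% of all 21887 had a Gtf3c1 region and 53.8% and 58.3% an H3K27ac region. For members the end not shared within the cluster was the start, and for Pcdhb the same direction was assumed. Named with values were the C-type genes, the 5 strongest starts of each list, and starts found in 1 condition alone. Of the 5 strongest span regions of each list, only some were named. The members, gene lists and alternatives (q of 1e-05, other windows, equal list lengths, 50% overlap) were chosen with earlier results of these data known. Columns of per-sample values left unused numbered 0.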

Additional observations from a re-analysis of the deposited data

How the results depend on the processing

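Of 84 alternative values for 36 results, 67 stayed close to the reported ones and 17 moved; no cause was tested beyond the smaller lists or windows. With a q of 1e-05 or lower, Gtf3c1 starts numbered 4 untreated in place of 7, beside 31.1% of protein-coding starts. Coverage of the span was then 0.663% and 0.968% for Gtf3c1 and 0.0976% for Rpc155 untreated. Starts in 1 condition alone were then 1 (KCl) and 0 (untreated) for Gtf3c1, 0 (KCl) for H3K4me1 and 5 (KCl) for H3K27ac. In that order, the protein-coding shares were 9.51%, 5.81%, 2.16% and 5.48%. At this limit 100% of untreated H3K27ac regions in the span overlapped a KCl region. With a window of 500 bp before to 500 bp after the start, Gtf3c1 starts numbered 4 and 3 and H3K4me1 starts with KCl 5. The protein-coding shares were 38.3%, 40.5% and 54.6%. Starts in 1 condition alone were 0 (KCl) and 1 (untreated) for Gtf3c1 and 0 (KCl) for H3K4me1, beside 6.99%, 4.76% and 5.20%. With equal list lengths, Rpc155 untreated coverage was 0.0976% and Gtf3c1 starts in the untreated list alone numbered 1, beside 3.61% of protein-coding starts. A distance of 1 kb in place of 5 kb, and a 50% overlap, moved no value past the spread allowed. No paired analysis was possible because the labels carry no replicate numbers and each group has 1 list. Without replicate lists or read counts, a region absent from a list may lie just under its threshold.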
